A study of Mus musculus with 6 samples.

Results

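The genes described here encode 8 enzymes of serine synthesis and of the folate-bound one-carbon cycle: Phgdh, Psat1, Psph, Shmt1, Shmt2, Mthfd1, Mthfd2 and Aldh1l2. They were chosen as a named list and found by gene symbol in the platform annotation, which held all 8 of them, each with 1 probe set, among 19505 genes with a symbol. Expression was measured in B16F10 cells, an established pigmented mouse melanoma line, on single-colour Affymetrix arrays. Before RNA extraction they spent 48 h in RPMI1640 medium with no compound (control) or with di-sq, which the series title calls SQ-diEG, at 2.5 µM or at 40 µM. No solvent for the compound is named in the labels. Each group had 2 arrays. All 3 groups are the same line. The labels do not state whether replicate arrays stem from different cultures, and the p-values therefore reflect only the spread among these arrays, which may be technical.

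Cells make serine from a glycolytic intermediate in a chain of reactions that Phgdh opens, Psat1 continues and Psph closes. The hydroxymethyltransferases Shmt1 in the cytosol and Shmt2 in mitochondria then turn serine into glycine and pass its side-chain carbon to tetrahydrofolate. Mthfd1 in the cytosol and Mthfd2 in mitochondria interconvert the carbon-carrying forms of folate, and Aldh1l2 oxidises formyl-folate in mitochondria to carbon dioxide with a gain of NADPH. These units feed purine and thymidylate synthesis, and several of these genes are known targets of the stress factor ATF4, which responds to amino acid shortage and to stress of the endoplasmic reticulum.

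Values are the deposited log2 expression values, and differences are on that scale. Its maximum of 19.88 lies above 16, the log2 maximum of a 16-bit image, so the scale is not that of plain scanner values, and how it was reached is not stated in the labels. The 95th percentile of 5222 negative control features, averaged over the arrays, was 9.94 and is called the background level below. All 9 pigment cell markers checked, Tyr, Mitf and Pmel among them, lay above it, and all 20 measured markers of fibroblasts, keratinocytes, leukocytes and endothelium lay below it. The arrays 2.5 µM replicate 1 and 40 µM replicate 1 stood apart from the other 4, with mean hybridisation controls of 10.4 and 10.3 against 10.8 to 11.2. Their mean poly-A controls were 5.65 and 5.63, against 6.35 to 7.42 on the other 4, which also differed among themselves, with 40 µM replicate 2 highest. The arrays 2.5 µM replicate 1 and 40 µM replicate 1 are called the low-control arrays. Arrays give no read depth, and precision is limited by their number.

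None of the 8 enzymes passed the test in any of the 3 comparisons (limma, Benjamini-Hochberg adjustment over all 19505 genes, threshold 0.05), where 0% of all genes passed. At an unadjusted p under 0.05, none of the 8 passed for 40 µM against control, where 12.0% of all genes did, none for 2.5 µM against control, against 9.62%, and 1, Aldh1l2, for 40 µM against 2.5 µM, against 5.61%. The largest difference from control was that of Aldh1l2 at 40 µM, at -0.40. Phgdh and Aldh1l2 were the members with the smallest unadjusted p at 2.5 µM and at 40 µM against control, respectively. These are bulk values, in which fewer expressing cells and less RNA per cell cannot be told apart.

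**Figure D1:**
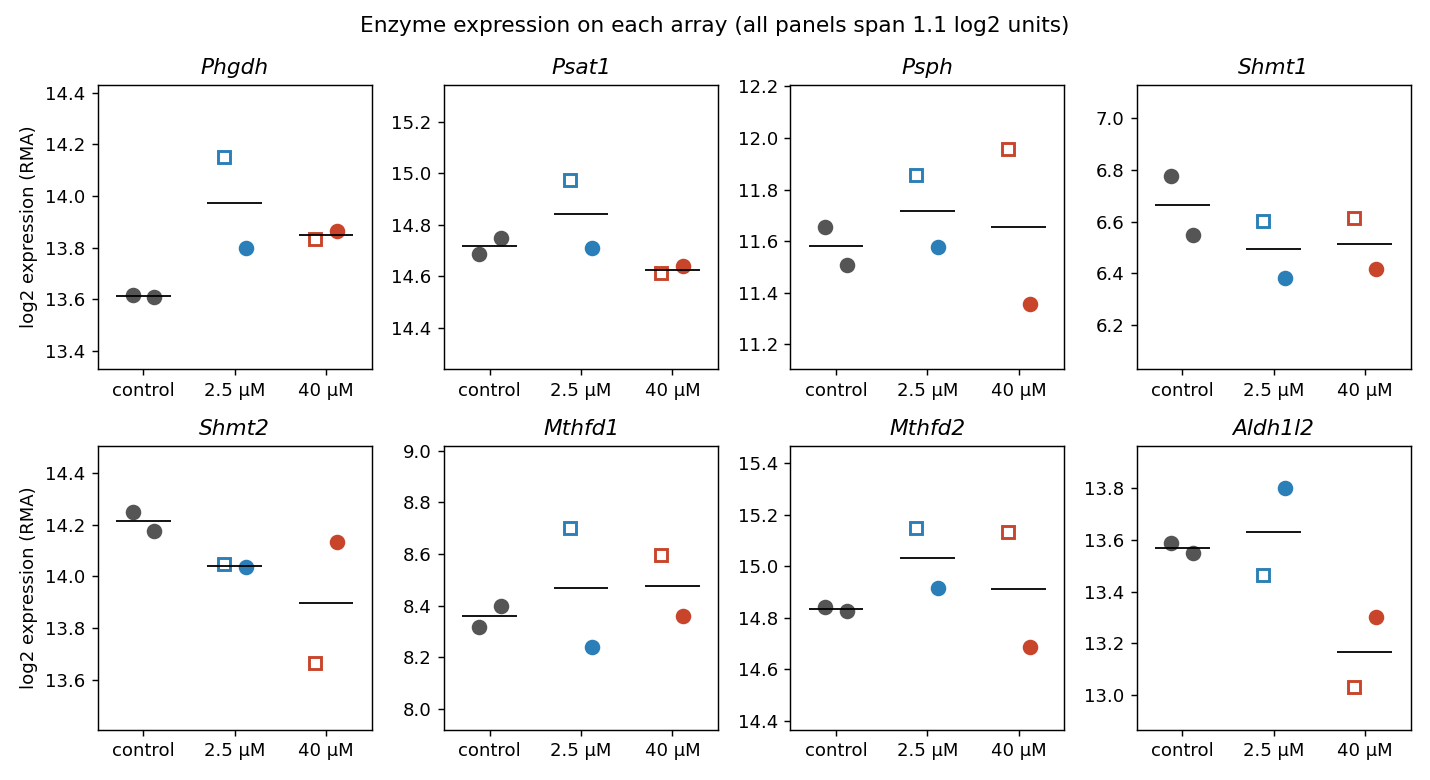
Log2 expression (vertical axis, RMA) of each enzyme on the 6 arrays, by group. Filled circles are arrays, open squares the 2 low-control arrays, and lines the group means. Phgdh lies above both controls on all 4 treated arrays, and Aldh1l2 lies lowest on the 2 arrays at 40 µM.

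Phgdh, phosphoglycerate dehydrogenase, commits carbon to serine synthesis. It lay at 13.62 and 13.61 on the control arrays, at 14.15 and 13.80 at 2.5 µM and at 13.83 and 13.86 at 40 µM. All 4 treated arrays were thus above both controls, as they were for 13.0% of all genes, and the order held after quantile normalization. The difference from control was 0.36 at 2.5 µM, with a standard error of 0.18 and a 95% confidence interval from -0.07 to 0.79 (limma, adjusted p = 0.5645). Without the low-control array 2.5 µM replicate 1 it was 0.19. At 40 µM it was 0.23 with a standard error of 0.18 and an interval from -0.20 to 0.67 (limma, adjusted p = 0.600). The doses differed by -0.13, with an interval from -0.56 to 0.31, and their arrays overlapped. Without both low-control arrays, Phgdh passed at 40 µM with a difference of 0.25 (limma, adjusted p = 0.0387), in a fit whose error came from the 2 controls alone and in which 19.2% of all genes passed.

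The upstream sequences of Phgdh and of Shmt2 are shown since these are the members that lay on 1 side of both controls on all 4 treated arrays, Phgdh above and Shmt2 below. They are the 250 bases before the RefSeq start of each gene (build GRCm38.p6, both on the minus strand), at chr3:98339970-98340219 for Phgdh and chr10:127522445-127522694 for Shmt2, printed 5′ to 3′ on the gene's strand. Capitals mark matches to any of 4 motifs searched on both strands.
Phgdh: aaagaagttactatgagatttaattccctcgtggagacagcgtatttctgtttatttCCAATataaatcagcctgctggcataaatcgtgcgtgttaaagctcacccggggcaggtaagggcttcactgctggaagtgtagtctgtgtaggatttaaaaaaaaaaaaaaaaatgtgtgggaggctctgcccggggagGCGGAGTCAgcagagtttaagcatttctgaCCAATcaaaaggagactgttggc
Shmt2: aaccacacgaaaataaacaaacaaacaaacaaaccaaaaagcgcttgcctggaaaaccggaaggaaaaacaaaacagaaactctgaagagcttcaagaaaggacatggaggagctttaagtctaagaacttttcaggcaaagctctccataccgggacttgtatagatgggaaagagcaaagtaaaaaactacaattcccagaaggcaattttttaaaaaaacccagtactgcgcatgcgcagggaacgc
The motifs were TGATGNAA for the composite element bound by ATF4, TGACNNNGC for the antioxidant response element bound by NRF2, CACGTG for the E-box bound by MYC, and CCAAT for the CCAAT box. They do not overlap each other in these sequences. Phgdh has 1 match to TGACNNNGC, on the opposite strand as GCGGAGTCA, whose first base lies 53 bases before the start, and 2 to CCAAT, 193 and 23 bases before it. Shmt2 has no match to any of the 4. Over 32851 RefSeq windows of the same length, 3.45% held TGATGNAA, 10.2% TGACNNNGC, 6.02% CACGTG and 33.9% CCAAT. RefSeq windows were matched for 7 of the 8 members, and none of them held TGATGNAA or CACGTG. A match is a description of letters, and no match says only that these letters are not in this window.

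Psat1, the phosphoserine aminotransferase of the second step, lay at 14.69 and 14.75 in control, at 14.97 and 14.71 at 2.5 µM and at 14.61 and 14.64 at 40 µM. Only 2.5 µM replicate 1 was high, and at 40 µM both arrays were below both controls. The difference at 40 µM was -0.09 with a standard error of 0.17 and an interval from -0.49 to 0.31 (limma, adjusted p = 0.836), and the arrays overlapped after quantile normalization. At 2.5 µM it was 0.12, from -0.27 to 0.52, and 40 µM differed from 2.5 µM by -0.21, from -0.61 to 0.18. The 2.5 µM difference rested on the low-control array, being -0.0074 without it.

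Psph, phosphoserine phosphatase, releases free serine. It lay at 11.65 and 11.51 in control, at 11.86 and 11.58 at 2.5 µM and at 11.96 and 11.36 at 40 µM. The 2 arrays at 40 µM were the highest and the lowest of the 6. Its mean differences from control, 0.14 at 2.5 µM and 0.07 at 40 µM, were smaller than their standard errors of 0.25, and the 40 µM difference changed sign after quantile normalization.

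Shmt2, the mitochondrial hydroxymethyltransferase, lay at 14.25 and 14.18 in control, at 14.05 and 14.04 at 2.5 µM and at 13.66 and 14.13 at 40 µM. All 4 treated arrays were below both controls, as they were for 14.8% of all genes, also after quantile normalization. The closest pair was 40 µM replicate 2 and control replicate 2, with a difference of -0.0435. The difference was -0.17 at 2.5 µM, with a standard error of 0.20 and an interval from -0.65 to 0.30 (limma, adjusted p = 0.797), and -0.31 at 40 µM, with a standard error of 0.20 and an interval from -0.79 to 0.16 (limma, adjusted p = 0.534). 40 µM differed from 2.5 µM by -0.14, from -0.62 to 0.33. The 40 µM difference was -0.55 without 40 µM replicate 2, where Shmt2 passed (limma, adjusted p = 0.0473) together with 11.5% of all genes, and -0.08 without 40 µM replicate 1.

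Shmt1, its cytosolic counterpart, lay below the background level on each array, at 6.78 and 6.55 in control, 6.60 and 6.38 at 2.5 µM and 6.61 and 6.42 at 40 µM. The medians of the negative controls were 5.98 to 6.10, so these are differences between values close to background. They were -0.17 at 2.5 µM and -0.15 at 40 µM with a standard error of 0.23 each, and the groups overlapped.

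Mthfd2, the mitochondrial dehydrogenase and cyclohydrolase, lay at 14.84 and 14.83 in control, at 15.15 and 14.92 at 2.5 µM and at 15.13 and 14.69 at 40 µM. Both arrays at 2.5 µM were above both controls, while at 40 µM 1 array lay above and the other below them. The difference was 0.20 at 2.5 µM with a standard error of 0.20 and an interval from -0.28 to 0.67 (limma, adjusted p = 0.767), and 0.08 at 40 µM, from -0.40 to 0.55. It was -0.15 at 40 µM without both low-control arrays.

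Mthfd1, the cytosolic enzyme that carries synthetase, cyclohydrolase and dehydrogenase activities, also lay below the background level on each array. It was at 8.32 and 8.40 in control, at 8.70 and 8.24 at 2.5 µM and at 8.60 and 8.36 at 40 µM. The controls lay between the 2 arrays at 2.5 µM. Its differences from control were 0.11 at 2.5 µM and 0.12 at 40 µM with a standard error of 0.24 each, and both changed sign after quantile normalization.

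Aldh1l2, the mitochondrial formyltetrahydrofolate dehydrogenase, lay at 13.59 and 13.55 in control, at 13.46 and 13.80 at 2.5 µM and at 13.03 and 13.30 at 40 µM. Both arrays at 40 µM were below every array of the other groups, as for 9.35% of all genes and for Psat1 among the 8, and stayed so for Aldh1l2 after quantile normalization, whereas the arrays at 2.5 µM lay on either side of the controls. The difference at 40 µM from control was -0.40 with a standard error of 0.20 and an interval from -0.87 to 0.06, that is 0.757 times the control level with an interval from 0.548 to 1.04 (limma, adjusted p = 0.447). At 40 µM it differed from 2.5 µM by -0.47 with a standard error of 0.20 and an interval from -0.93 to -0.001 (limma, unadjusted p = 0.0496, adjusted p = 0.854). Against the array of the same number at 2.5 µM, it differed by -0.43 on replicate 1, where both are low-control arrays, and by -0.50 on replicate 2. The labels do not say that the numbers pair the arrays, so these are not paired measurements. At 2.5 µM the difference from control was 0.06, from -0.40 to 0.53. Without both low-control arrays Aldh1l2 passed at 40 µM against control (-0.27, limma, adjusted p = 0.0343) and against 2.5 µM (-0.50, limma, adjusted p = 0.00835), in fits with 19.2% and 15.2% of all genes passing.

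**Figure D2:**
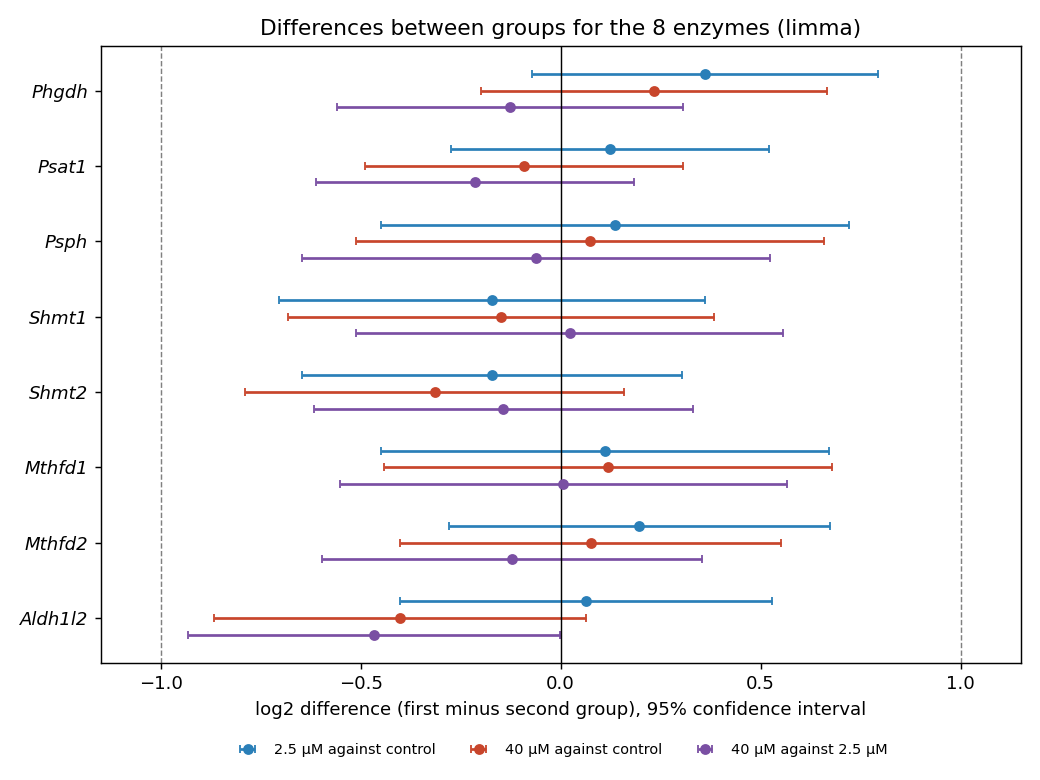
Log2 differences between groups (horizontal axis) for each enzyme, with 95% confidence intervals from limma (error bars). Dashed lines mark a 2-fold difference in either direction. All 24 intervals lie between them, from -0.93 to 0.79.

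In each comparison the 95% confidence intervals of all 8 enzymes lay within a 2-fold difference either way, with bounds from -0.87 to 0.68 for 40 µM against control, from -0.70 to 0.79 for 2.5 µM against control and from -0.93 to 0.57 between the doses. Of all genes, 63.4%, 66.3% and 72.0% had such intervals, and of the 4147 genes above the background level, 6 of the enzymes among them, 70.7%, 75.1% and 78.8% did. The intervals for the folds hold on the deposited scale. The number fell to 5 without control replicate 1 and to 4 without control replicate 2 for 40 µM against control. For 2.5 µM against control it fell to 5 without control replicate 2. After quantile normalization it was 7 for 40 µM against control and 7 between the doses. The median standard error of the 8 was 0.20.

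The enzymes did not lie on a common side of control. At 40 µM 4 had means above and 4 below, with a median difference of -0.01 (-0.01 over all genes), and at 2.5 µM 6 had means above and 2 below, with a median of 0.12 (0.01 over all genes). Between the doses, 2 were above and 6 below at 40 µM, with a median of -0.12 (-0.003 over all genes). At 40 µM 1 enzyme, Phgdh, had both arrays above both controls (22.2% of all genes) and 3, Psat1, Shmt2 and Aldh1l2, had both below (26.3%). At 2.5 µM 2, Phgdh and Mthfd2, had both above (27.1%) and 1, Shmt2, both below (25.9%). Between the doses no enzyme had both 40 µM arrays above both at 2.5 µM (12.4%), and Psat1 and Aldh1l2 had both below (16.3%). Both comparisons with control share the same 2 control arrays.

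Within serine synthesis, the group means of Phgdh and Psph lay above control at both doses. That of Psat1 lay above at 2.5 µM and below at 40 µM. The differences of Psph and Psat1 from control were smaller than their standard errors. Those of Phgdh, 0.36 at 2.5 µM and 0.23 at 40 µM, exceeded their standard error of 0.18. Their confidence intervals still reached below control, from -0.07 to 0.79 and from -0.20 to 0.67. Among the mitochondrial enzymes, Shmt2 and Aldh1l2 had their lowest values on 40 µM replicate 1, at 0.55 and 0.54 under the control mean, while Mthfd2 on that array was 0.30 above it.

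**Figure D3:**
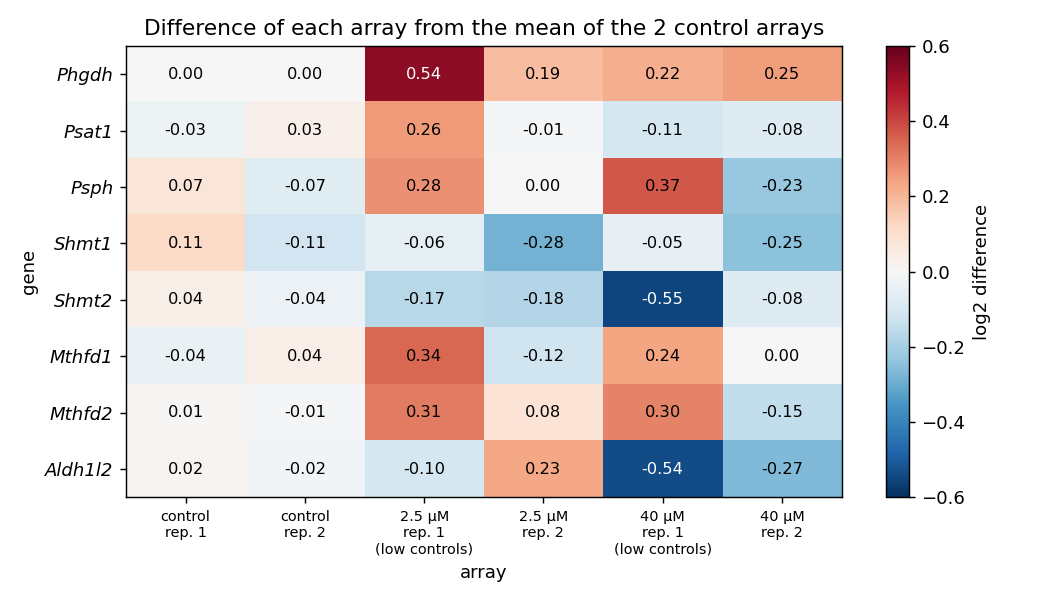
Log2 difference of each enzyme on each array from the mean of the 2 control arrays (colour and printed value). Columns are arrays, rows are genes. Psph, Mthfd1 and Mthfd2 are highest on the 2 low-control arrays, and Shmt2 and Aldh1l2 are lowest on 40 µM replicate 1.

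Psph, Mthfd1 and Mthfd2 were higher on both low-control arrays than on each of the other 4, 3 of 8 enzymes against 16.2% of all genes, and no enzyme was lower on both (14.8%). Psph and Mthfd2 kept this order after quantile normalization and Mthfd1 did not. For Mthfd2, the low-control arrays were at 15.15 and 15.13 and the other 4 from 14.69 to 14.92. With the low-control arrays as a block, the differences of these 3 from control at 40 µM were -0.15, -0.056 and -0.094, each opposite in sign to the values without the block. Each dose had 1 low-control array and 1 other array, so the gap between its 2 arrays lies along this split for every gene.

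Of 28 measured folate and one-carbon neighbours, 17 had a higher mean at 40 µM than in control and 11 a lower one, with a median of 0.23 (-0.01 over all genes), and none passed (limma). At an unadjusted p under 0.05, 2 of 28 were higher and none lower, where 12.0% of all genes reached that p: Gcsh, a protein of the glycine cleavage system, by 0.83, and Tyms, thymidylate synthase, by 0.75. Sfxn3, a sideroflexin of the mitochondrial membrane, was next with 0.55. Tyms lay at 10.14 and 10.62 in control, at 11.21 and 10.72 at 2.5 µM and at 11.14 and 11.13 at 40 µM, so that all 4 treated arrays were above both controls, as for 13.0% of all genes. At 2.5 µM the median was 0.07 and none reached that p (9.62% of all genes), the nearest being Tyms with 0.59, the folate carrier Slc19a1 with -0.62 and Mthfd1l, the mitochondrial formyltetrahydrofolate synthetase, with 0.45. Between the doses 22 were higher at 40 µM and 6 lower, with a median of 0.15 and 1 under that p (5.61% of all genes), Gcsh with 0.74, followed by Mtrr with -0.46 and Cbs with 0.38. Gcsh, Sfxn3, Slc19a1, Mtrr and Cbs had means below the background level. Only 7 of the 28 had means above it, so these counts and medians rest mostly on genes below it.

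Of 11 measured genes of purine synthesis, which takes up formyl-folate, 8 had higher means at 40 µM than in control, with a median of 0.37 (-0.01 over all genes). None passed (limma), and at an unadjusted p under 0.05 there were 2 higher and 0 lower of the 11 at 40 µM (12.0% of all genes), 1 and 1 at 2.5 µM (9.62%), and 1 and 0 between the doses (5.61%). Prps1, phosphoribosyl pyrophosphate synthetase, lay at 9.68 and 9.72 in control, at 10.67 and 10.52 at 2.5 µM and at 11.32 and 10.57 at 40 µM. All 4 treated arrays were above both controls, as for 13.0% of all genes, with differences of 0.89 at 2.5 µM (limma, adjusted p = 0.479) and 1.24 at 40 µM (limma, adjusted p = 0.334). Adssl1, below the background level, and Atic, which catalyses the last steps of the pathway, followed at 40 µM with 1.08 and -0.35. At 2.5 µM the median was 0.24, and Prps2 with -0.58 and Adss with 0.54 followed Prps1. Between the doses the median was 0.18, with Adssl1 at 0.79, Atic at -0.41 and Impdh1 at 0.55. Prps2 and Impdh1 lay below the background level, and 7 of the 11 genes had means above it.

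Of 16 measured genes of serine and glycine supply and use, 11 had higher means at 40 µM and 12 at 2.5 µM than in control, with medians of 0.13 each (-0.01 and 0.01 over all genes). None passed (limma), and at an unadjusted p under 0.05 there were 2 of 16 higher at 40 µM (12.0% of all genes), 1 higher at 2.5 µM (9.62%), 0 lower at either and 0 between the doses (5.61%). Serinc3, a membrane protein of the serine incorporator family, differed by 0.52 at 2.5 µM and 0.54 at 40 µM (limma, adjusted p = 0.479 and 0.349), and Ptdss1, a phosphatidylserine synthase, by 0.45 and 0.62. Serinc1 at 40 µM and Pkm, the pyruvate kinase, at 2.5 µM came next, with 0.82 and 0.28. Serinc1 lay at 13.60 and 13.77 in control, and at 40 µM at 15.09 on the low-control array and 13.93 on the other. Between the doses the median was 0.02 and the smallest p belonged to Pkm with -0.27, the transporter Slc1a5 with 0.41 and Ptdss2 with -0.28. Means above the background level were found for 12 of the 16 genes.

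Of 21 measured genes of ATF4 and its known targets, 14 had higher means at 40 µM and 13 at 2.5 µM than in control, with medians of 0.13 and 0.07 (-0.01 and 0.01 over all genes). None passed (limma), and at an unadjusted p under 0.05 there were 0 of 21 at 40 µM (12.0% of all genes), 1 higher at 2.5 µM (9.62%) and 2 higher between the doses (5.61%). Atf4 itself lay at 16.65 and 16.56 in control, 16.67 and 16.68 at 2.5 µM and 16.80 and 16.81 at 40 µM, a difference of 0.20 at 40 µM with a standard error of 0.14 (limma, adjusted p = 0.574). ATF4 is known to be controlled mainly at translation, which these arrays do not measure. The smallest p belonged at 40 µM to the cystine importer Slc7a11, Atf5 and Sesn2, with 0.36, 0.35 and -0.42, and at 2.5 µM to Atf3, the asparaginyl-tRNA synthetase Nars and Vldlr, with 0.68, 0.43 and 0.54. Between the doses Slc7a11, Stc2 and Vldlr led, with 0.50, 0.60 and -0.53, and Sesn2, Vldlr and Stc2 lay below the background level. Means above that level were found for 15 of the 21 genes. Of the other factors known to act on these enzymes, Myc differed from control by -0.35 at 2.5 µM and -0.05 at 40 µM. Nfe2l2, the gene of NRF2, differed by -0.46 and -0.19, and its inhibitor Keap1 by -0.14 and 0.56, both with means below the background level. Between the doses Keap1 differed by 0.70 (limma, unadjusted p = 0.0231, adjusted p = 0.854), Myc by 0.30 and Nfe2l2 by 0.26.

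Among 4141 other genes above the background level, those whose values over the 6 arrays followed an enzyme most closely (Pearson r, a description over arrays that share the low-control split) were Slc20a2 and Alg3 for Phgdh (0.987 and 0.981) and Dip2c and Dmxl2 for Aldh1l2 (0.992 and 0.991). They were Fam168b and Csnk1d for Shmt2 (0.991 and 0.990), Ajuba and Ckb for Psat1 (0.961 and 0.960), and Ndufaf4 and Ss18l2 for Psph (0.990 and 0.988). For Mthfd2 they were Cdc40 and Gmcl1 (0.995 and 0.991), for Mthfd1 Asf1b and Atp6v1f (0.991 and 0.989), and for Shmt1 Plpp2 and Git2 (0.962 and 0.952).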

How the data were processed

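Biotin-labelled cRNA from total RNA was hybridised to Affymetrix mouse arrays, per the labels' protocols. The deposited table holds log2 expression values from the authors' RMA step. The submitters' processing notes list RMA, the Transcriptome Analysis Console and Affymetrix Expression Console, with no version. RMA usually includes quantile normalization, which removes differences in total signal. In the deposited values, the interquartile range over genes with a symbol ran from 4.90 to 5.43, with the largest values on the 2 low-control arrays. RMA applies that normalization to probes before they are summarised, so these ranges do not show whether it was done. The genome build was not given in the sources used here, nor were filters or batch treatment. Groups follow titles and treatment labels. The free-text descriptions of the 4 treated samples do not match these: that of 2.5 µM replicate 1 names medium and those of the other 3 name another treatment, called APC, so the group of these samples rests on the title, source name and treatment fields.

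The platform annotation named 19572 of 22206 transcript clusters with 1 symbol, none with several, and 2634 with none, which were left out. Of several probe sets, the one with the highest mean over the 6 arrays was used, which left 19505 genes. All 6 arrays were fitted with group means in limma 3.58.1 (R 4.3.3), no covariates and a variance prior following the mean level (3 residual and 4.11 prior degrees of freedom). The two-sided p-values were adjusted over all genes by the Benjamini-Hochberg method. The fit was also run on simulated data without a low-control split and with changes larger than those of the enzymes. That run does not bear on how the fit behaves for differences of their size.

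The 8 enzymes and the gene lists were chosen with earlier results of these data known. Named were all 8 enzymes, the 3 genes of each list with the smallest p per comparison, and the 2 genes above background with the highest Pearson r per enzyme. Tyms, Prps1, Atf4, Myc, Nfe2l2 and Keap1 are further described because of their role or their place on these lists. The alternatives were the replicate number or the low-control split as a block, leaving out arrays, quantile normalization, a filter at the background level, no variance trend, array weights and the mean of probe sets. Promoter windows come from RefSeq (GRCm38.p6).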

Additional observations from a re-analysis of the deposited data

How the results depend on the processing

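No gene passed in any comparison with the replicate number as a block, as without it, and the block left Aldh1l2 between the doses at -0.47 (unadjusted p = 0.0451). Deviations from the group mean of same-numbered arrays correlated at -0.0045 (control and 2.5 µM), -0.012 (control and 40 µM) and 0.39 (2.5 µM and 40 µM). Nothing in the labels says that the numbers pair the samples. At both doses replicate 1 was the low-control array, so among treated arrays the replicate number and that split cannot be told apart. Without both low-control arrays, whose error comes from the 2 controls alone, 3749 genes passed for 40 µM against control, 2 of them among the enzymes, 3991 for 2.5 µM against control, and 2965 between the doses, with 1 enzyme. With the low-control split as a block 1 gene passed between the doses. Leaving out 1 array in turn, between 0 and 2235 genes and between 0 and 1 enzymes passed for 40 µM against control, the top with 40 µM replicate 2 left out and the lone array assumed to vary like the other groups. The number of enzymes with an interval within 2-fold was a count added after seeing the data. With 1 array left out, it ran from 4 to 8 for 40 µM against control and from 5 to 8 for 2.5 µM. Between the doses it ran from 7 to 8.

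No enzyme passed on the 6 arrays, so the following are changes of sign of differences within their error, and the cause was not tested. For 40 µM against control, Psph was at -0.15 with the split as a block, -0.23 without both low-control arrays and -0.043 after quantile normalization, Mthfd1 at -0.056 with the block and -0.086 after quantile normalization, and Mthfd2 at -0.094 with the block and -0.148 without both arrays. For 2.5 µM, Psat1 was at -0.0074 without both arrays, Psph at -0.083 with the block and -0.00295 without both arrays, and Mthfd1 at -0.063, -0.12 and, after quantile normalization, -0.0039. Between the doses, Phgdh was at 0.065 and Shmt2 at 0.099 without both arrays, and Shmt1 at -0.035 and Mthfd1 at -0.082 after quantile normalization. Leaving out 1 array in turn at 40 µM gave -0.23 to 0.37 for Psph and -0.15 to 0.30 for Mthfd2. At 2.5 µM it gave -0.0074 to 0.26 for Psat1, -0.00295 to 0.28 for Psph, -0.12 to 0.34 for Mthfd1 and -0.10 to 0.23 for Aldh1l2. Between the doses it gave -0.30 to 0.049 for Phgdh, -0.36 to 0.24 for Psph, -0.089 to 0.13 for Shmt1, -0.38 to 0.092 for Shmt2, -0.22 to 0.24 for Mthfd1 and -0.34 to 0.10 for Mthfd2. The differences with no change of sign under any alternative run were those of Phgdh, Shmt1 and Shmt2 from control at both doses, of Psat1 and Aldh1l2 at 40 µM from both other groups, and of Mthfd2 at 2.5 µM from control. Signal over background limits Shmt1 and Mthfd1, which the filter at the background level removed.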
